A study of Schizosaccharomyces pombe with 39 samples.

Results

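Fission yeast that lost the chromatin regulator Epe1 for good were compared with fission yeast in which Epe1 had been depleted for 120 h. The comparison used 9 of the 39 RNA-seq libraries of the study, all from Schizosaccharomyces pombe strains that lack mst2, so every value below is a difference on an mst2D background. Of the 9, 6 came from the mst2D epe1D deletion strain (3 from biological replicate 1 and 3 from biological replicate 2, without treatment), and 3 came from a degron strain treated for 120 h. The epe1 allele of the degron strain is nmt81-epe1-3xFLAG-AID, that is epe1 behind the thiamine-repressible nmt81 promoter with an auxin-inducible degron tag. At ade6 the strain carries ade6+ with adh15prom-skp1-OsTIR1, the marker natMX6 and adh15prom-skp1-AtTIR1-2NLS, so 2 fusions of Skp1 to the auxin receptor TIR1 are made from adh15 promoters. It also carries mst2D. The treatment, TN, is thiamine, which represses nmt81, together with 1-napthaleneacetic acid, an auxin that directs the tagged protein to degradation. All cultures grew in EMMC to log phase and polyA RNA was sequenced. Untreated degron cells at 0 h (3 libraries) entered the same fit. A separate memory experiment on the same degron genotype gave another set of 120 h libraries (3) and untreated libraries (3), which are set beside the main values. All genes were members: 6659 were shared by the time-course and deletion tables, and 6581 passed the filter on low counts and were tested.

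Epe1 is a JmjC-domain protein that keeps heterochromatin from spreading, and Mst2 is the catalytic subunit of a histone H3K14 acetyltransferase complex that also opposes silencing. Clr4 is the only H3K9 methyltransferase of fission yeast, and heterochromatin over the clr4 gene itself is known to lower its own expression when both anti-silencing factors are missing. Silent chromatin in this species sits at centromeres, at the mating-type locus, at telomeres and in islands over meiotic genes. Iron genes are controlled by the GATA-type repressor Fep1, which shuts iron uptake genes when iron is plentiful, and by Php4, which represses iron-using genes through the CCAAT-binding complex when iron is scarce. Thiamine genes are shut when thiamine is in the medium.

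No difference in clr4 RNA was detected between the deletion cells and the time-course 120 h cells, while whole groups of metabolic genes differed between them. Iron and haem uptake genes were far lower in the deletion, iron-using respiratory genes were higher, thiamine-repressed genes were higher, and genes near the chromosome ends differed in both directions. The clr4 and respiratory results depended on the 120 h set. Against the memory-experiment 120 h libraries clr4 was higher in the deletion by 0.92 on the log2 scale, and the respiratory list had a median of 0.01. Of the 6581 genes tested against the time-course 120 h libraries, 2791 (42.4%) passed an adjusted p under 0.05. The test was edgeR's quasi-likelihood test with Benjamini-Hochberg adjustment. The split was even: 1364 (20.7%) were higher and 1427 (21.7%) were lower in the deletion. Most of these differences were small, since 78.5% of the genes that passed differed by less than 1.5-fold. At least 2-fold differences were found for 174 genes (2.64%) that were higher and 111 genes (1.69%) that were lower. The median log2 difference over all genes tested was -0.016. Both deletion biological replicates passed in the same direction for 1874 genes (28.5%), and the 6 deletion and 3 depletion values did not overlap for 2422 genes (36.8%).

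Strain, treatment and count table changed together between the 2 sides of the comparison, so this comparison alone cannot tell apart the loss of the gene, the degron construct, the TN treatment and the table. Levels in untreated degron cells (the same strain and table, without TN) and in the memory libraries are given beside the main values where they bear on this. No library of a degron-free strain under TN was analysed here. The 9 libraries held 20733636 to 27900659 counts each. Levels are given as CPM, counts scaled to the library total after TMM scaling, and are not per length, so they compare groups and not genes. The 120 h libraries stood apart from both other groups on the first principal component, which held 44.9% of the variance. Their scores lay from 25.88 to 33.59, against -14.12 to -10.38 in the deletion and -8.23 to -4.81 at 0 h. On the second component, with 33% of the variance, the 0 h libraries stood apart at 25.55 to 27.15, against -13.52 to -8.85 in the deletion and -4.03 to -2.77 at 120 h. Among the 120 h libraries, replicate 1 differed from replicates 2 and 3 more than these differed from each other (chi-square over its degrees of freedom of 60.09 and 76.33, against 7.24). Without 120 h replicate 1, 16 counts of higher or lower genes in the gene lists moved by over 1.5 times and 64 did not. Only some of these 16 are given below with and without that library, so a count given once may also depend on it. The labels call the deletion sets biological replicates, but do not say whether the 3 libraries within a set came from separate cultures, so p-values measure the spread between these libraries. The 2 biological replicates differed from each other at 51 genes (0.775%).

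**Figure D1:**
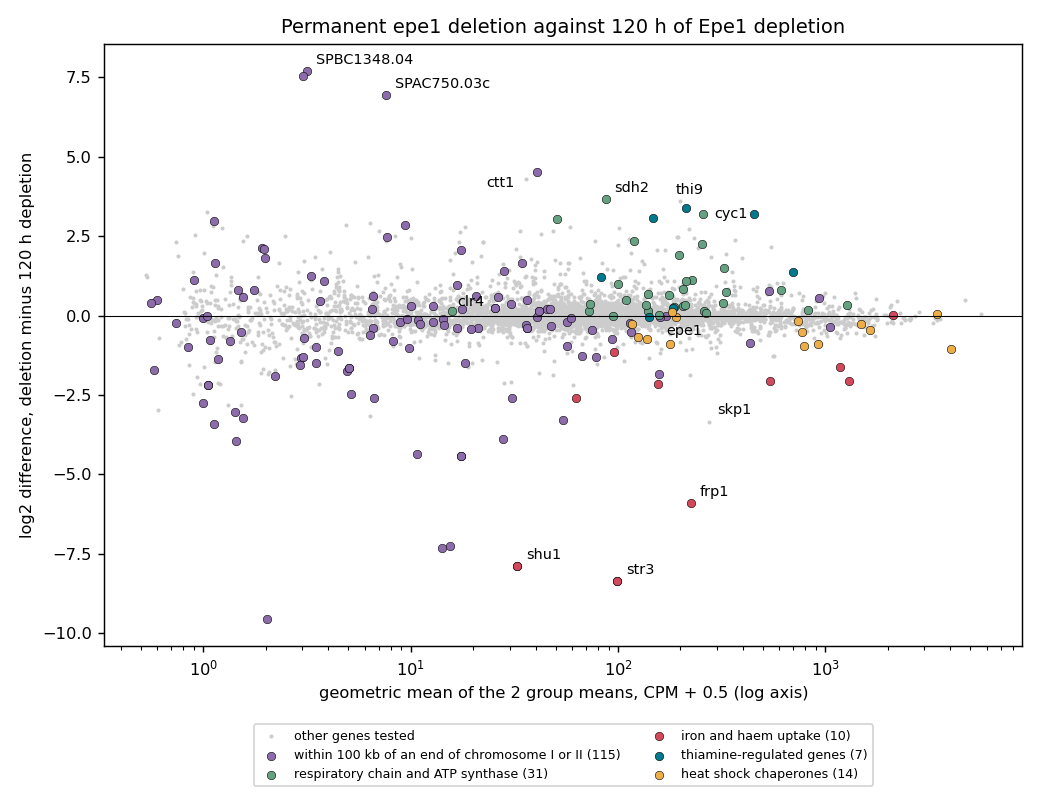
Log2 difference of each of the 6581 genes tested, deletion minus 120 h depletion (vertical axis), against the geometric mean of the 2 group means in CPM + 0.5 (horizontal log axis). Coloured points are gene lists with the number tested in brackets, drawn over one another in the order of the legend, so str3 and shu1 appear as iron uptake genes and not as subtelomeric ones. Iron uptake genes reach down to -8.36 and thiamine-regulated genes up to 3.38, while clr4 lies at 0.08.

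The epe1 gene was checked first. In the libraries labelled epe1D it had 137, 118 and 115 CPM in biological replicate 1 and 113, 104 and 104 CPM in biological replicate 2. After 120 h of TN the values were 276, 175 and 169 CPM, and the untreated degron libraries 318, 336 and 343 CPM. The deletion and time-course 120 h values did not overlap, and the log2 difference was -0.85 (SE 0.13, adjusted p = 5.58e-04). The memory 120 h libraries had 358, 433 and 495 CPM, and the untreated memory libraries 626, 598 and 590 CPM. Against the memory 120 h libraries the log2 difference was -1.88 (adjusted p = 4.00e-09), so its size depended on the 120 h set. Reads over epe1 in the deletion were therefore lower than after depletion but not at 0. The non-coding gene prl67 covers 48.5% of the epe1 gene, and counts that did not distinguish strands would hold its reads too. With the prl67 count subtracted, epe1 kept 18.3 ± 1.58 CPM (SD, n = 6) in the deletion and 31.9 ± 2.55 CPM (SD, n = 3) at 120 h, a ratio of 1.74 (exact 2-sided permutation test, p = 0.0238, the smallest the 6 against 3 design allows). That test permutes the 6 deletion libraries as separate units, which the labels do not establish. The remaining 335 to 499 counts in each deletion library come from gene-level counts, which do not show where in the gene they lie, so the deleted stretch could not be checked. The mst2 gene gives no check either, since its counts differed from those of the overlapping gene sec3 by at most 13 counts a library. The level of mst2 was 80.3 ± 1.52 CPM (SD, n = 6) in the deletion and 81.7 ± 3.95 CPM (SD, n = 3) at 120 h (log2 difference -0.02, adjusted p = 0.638).

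The genotype of the degron strain names 2 further genes, and both differed. The skp1 gene, which encodes the adaptor of SCF ubiquitin ligases, had 80.9 to 90.5 CPM (median 84.8) in the 6 deletion libraries and 885, 858 and 856 CPM in the 120 h libraries. That is a log2 difference of -3.34 (SE 0.07, adjusted p = 1.63e-12), or 10.1-fold lower in the strain without the 2 skp1-TIR1 fusions. Untreated degron cells also lay far above the deletion, at 562, 588 and 714 CPM. The ade6 gene, which encodes an enzyme of purine synthesis and is the insertion site of the construct, had 211 to 229 CPM (median 219) in the deletion and 153, 125 and 125 CPM at 120 h. It was higher in the deletion by 0.71 (SE 0.06, adjusted p = 9.94e-07). Of the 10 genes in the list of construct and auxotrophic marker genes, the other 7 did not pass.

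The clr4 gene was at 12.8 to 17.0 CPM (median 15.5) in the deletion. At 120 h it was at 10.9, 14.3 and 17.5 CPM, a range that encloses the deletion values. Untreated degron cells at 0 h had 51.4, 48.8 and 55.3 CPM, above every library of both other groups. The log2 difference between deletion and 120 h was 0.08 (SE 0.13, adjusted p = 0.645), so a difference between the permanent and the 120 h state was not detectable. The gene meu6 covers 54.5% of clr4. With the meu6 count subtracted, clr4 had 3.72 ± 0.728 CPM (SD, n = 6) in the deletion, 4.31 ± 0.623 CPM (SD, n = 3) at 120 h and 15.6 ± 2.27 CPM (SD, n = 3) at 0 h (deletion against 120 h, exact 2-sided permutation test, p = 0.214). This permutation test also took the 6 deletion libraries as separate units. The 120 h libraries of the memory experiment were lower than the deletion, at 7.19, 9.05 and 7.91 CPM (log2 difference 0.92, adjusted p = 2.10e-06). The result for clr4 thus depended on the 120 h set. Among the 6 genes next to clr4, 1 passed: rxt2, a subunit of histone deacetylase complexes, was lower in the deletion by -0.25 (SE 0.05, adjusted p = 2.25e-03).

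The rest of the silencing machinery differed little. Of 8 genes of the Clr4 methyltransferase complex and the HP1 proteins, 5 were lower in the deletion and none was higher, against 21.7% and 20.7% of all genes. The median log2 difference was -0.27, and none of the 8 reached 2-fold. Against the memory-experiment 120 h libraries 5 of the 8 were higher and 2 were lower, with a median of 0.22. Of all genes in that comparison 34.6% were higher and 33.7% lower. The chromodomain protein Chp1 had the largest difference, with 49 to 55.8 CPM (median 50.7) in the deletion and 67.4, 66.2 and 65.9 CPM at 120 h (log2 difference -0.36, SE 0.04, adjusted p = 3.89e-05). The HP1 protein gene swi6 was the most even, at 168 ± 5.97 CPM (SD, n = 6) and 170 ± 1.71 CPM (SD, n = 3). Of 8 RNA interference genes 1 was higher and 3 were lower, and of 9 histone deacetylase genes 1 was higher (clr2, 0.40) and 2 were lower. Among 12 acetyltransferase genes 2 were higher and 6 were lower, gcn5, the catalytic subunit of SAGA, by -0.39. Of 7 JmjC genes 4 were lower, epe1 among them, and of 10 telomere genes 2 were lower. None of these lists held a member past 2-fold. Fewer members passed with the 3 libraries of each biological replicate added into 1. The acetyltransferase genes then had 1 higher and 2 lower, the RNA interference genes had 0 higher and 1 lower, and 2 JmjC genes were lower. Several of these small differences changed sign against the memory-experiment 120 h libraries, where chp2 stood at 0.65 in place of -0.30 and clr2 at -0.40.

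Thiamine genes were higher in the deletion, whose cultures had no TN. Of the 9 genes listed, 7 were tested, 6 were higher in the deletion and 5 of these by at least 2-fold, against 2.64% of all genes. The high-affinity thiamine transporter gene thi9 had 651 to 725 CPM (median 679) in the deletion and 74.9, 61.0 and 61.7 CPM at 120 h, a difference of 3.38 (SE 0.08, adjusted p = 4.99e-12). The 0 h libraries, also without thiamine treatment, had 637, 692 and 689 CPM, within or just below the deletion range. The thiamine-repressible acid phosphatase gene pho4 had 1351 to 1399 CPM (median 1358) in the deletion, 168, 144 and 133 CPM at 120 h and 1216, 1381 and 1299 CPM at 0 h (log2 difference 3.20, SE 0.08, adjusted p = 9.13e-12). The vitamin B6 carrier gene bsu1 differed by 3.08, the thiamine synthesis gene thi4 by 1.37, and the transcription factor gene thi5 by 1.23. The thiamine pyrophosphokinase gene tnr3 differed by 0.24 (adjusted p = 1.94e-04), and thi1, which encodes the other factor of the pathway, had 134 to 144 CPM against 163, 134 and 129 CPM (adjusted p = 0.721). SPCC794.03, annotated as a thiamine transporter in the RefSeq annotation and not on the list, was among the 8 protein-coding genes with the largest rise. It had 649 to 715 CPM (median 700) in the deletion and 64.3, 54.8 and 49.9 CPM at 120 h (log2 difference 3.62, SE 0.10, adjusted p = 1.17e-11). Its 0 h libraries had 325, 392 and 323 CPM, below every deletion library. Against the memory-experiment 120 h libraries, which also had TN, thi9 differed by 3.77, pho4 by 2.79, bsu1 by 3.48 and SPCC794.03 by 3.90. There 5 of the 7 genes were higher and 2 were lower, thi1 by -0.60 (adjusted p = 3.85e-10) and tnr3 by -0.12 (adjusted p = 4.00e-02). Of all genes in the memory comparison 34.6% were higher and 33.7% lower. Both comparisons share the deletion libraries.

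**Figure D2:**
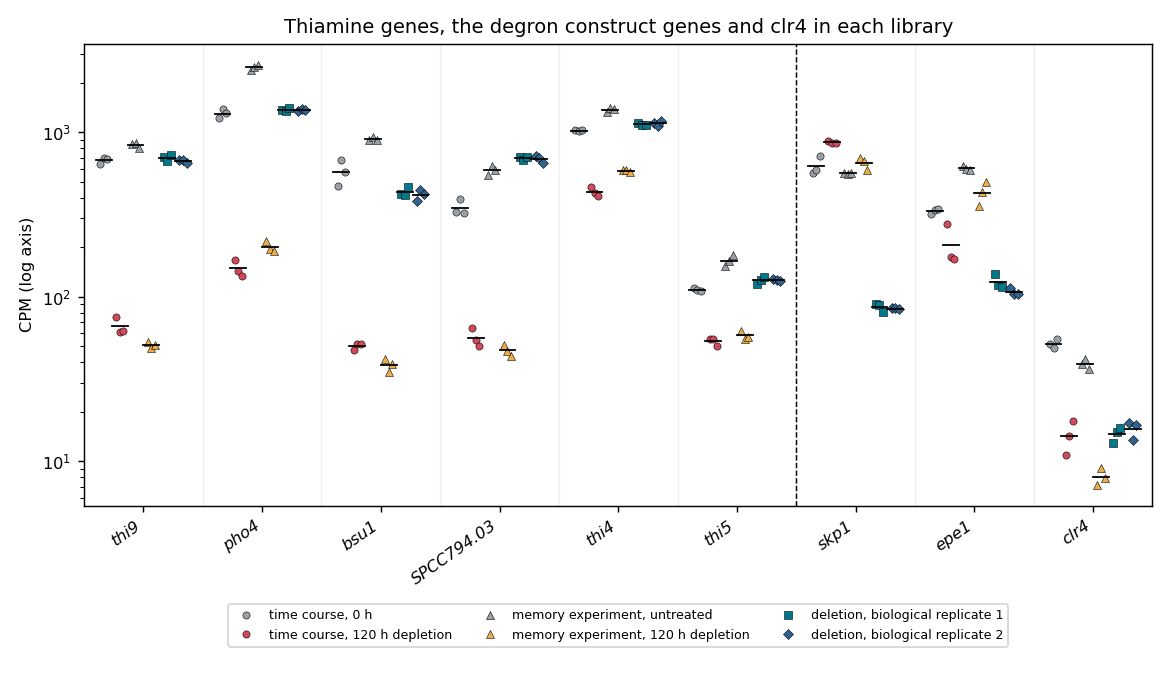
CPM of each library (vertical log axis) for 6 thiamine genes (left of the dashed line) and for skp1, epe1 and clr4 (right), by group, with 3 libraries a group as points and the group mean as a bar. Both 120 h groups lie below all other groups for the thiamine genes, skp1 is lowest in both deletion groups at 80.9 to 90.5 CPM, and clr4 is low in both deletion groups and both 120 h groups.

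Of the 40 gene lists counted, not all of which are described here, iron and haem uptake had the median difference farthest from 0. Of its 10 genes 9 were lower in the deletion, all 9 by at least 2-fold, against 1.69% of all genes, and the median log2 difference was -2.11 (all genes, -0.016). The members fall into siderophore transporters (str1, str2, str3), the reductive pathway (reductases frp1 and frp2, ferroxidase fio1, permease fip1), haem uptake (shu1) and synthesis of the siderophore ferrichrome (sib1, sib2). The siderophore transporter gene str3 (chromosome I, 88201 to 90300, minus strand) had 8.48, 8.63 and 8.19 CPM in deletion biological replicate 1 and 4.49, 2.20 and 1.75 CPM in biological replicate 2. The 120 h libraries had 2010, 1333 and 1442 CPM, so every 120 h value lay far above every deletion value. The log2 difference was -8.36 (SE 0.37, adjusted p = 1.71e-07). Untreated degron cells had 0.301, 4.17 and 1.84 CPM, close to the deletion and not to the 120 h level.

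All but 1 of the other uptake genes also lay below the 120 h level. The haem-binding cell surface protein gene shu1 (chromosome I, 85566 to 86324, minus strand) had 0.802 to 3.14 CPM (median 2.16) in the deletion and 149, 492 and 646 CPM at 120 h. The log2 difference was -7.88 (SE 0.48, adjusted p = 2.64e-06). The ferric reductase gene frp1 had 21.5 to 40.6 CPM (median 27.6) in the deletion and 1115, 1941 and 2016 CPM at 120 h (log2 difference -5.90, SE 0.48, adjusted p = 1.94e-05). At 0 h frp1 was at 7.75, 53.9 and 17.2 CPM, a range that encloses the deletion. The ferroxidase fio1 and the permease fip1, which work as a pair, were each lower by -2.07. Their levels were 186 to 372 CPM (median 269) against 1092 ± 114 CPM (SD, n = 3) for fio1, and 520 to 764 CPM (median 642) against 2635, 2640 and 2679 CPM for fip1. The reductase gene frp2 differed by -2.58, the siderophore transporter gene str1 by -1.63 (which did not pass with summed libraries, that is with the 3 libraries of a biological replicate added into 1), and the ferrichrome synthesis genes sib1 and sib2 by -1.14 and -2.15. Only str2 of the 10 did not pass, with 2061 to 2198 CPM (median 2102) in the deletion and 2349, 2049 and 1916 CPM at 120 h, and jmj4 overlaps 58.7% of it.

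The size of the iron difference depended on the 120 h set. Against the memory-experiment 120 h libraries, 9 of the 10 genes could be tested, 7 were lower in the deletion and 1 was higher, with a median of -1.18, against 33.7% lower and 34.6% higher of all genes in that comparison. There str3 differed by -5.96 and frp1 by -3.61, but fio1 by 0.18 (adjusted p = 0.289), and sib1 was higher in the deletion by 0.76. The memory 120 h libraries held 386, 158 and 370 CPM of str3, below the time-course 120 h libraries, and 38.3, 39.8 and 36.8 CPM of sib1, below the deletion.

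Promoter windows of 4 iron genes are shown because the uptake genes and the iron-using genes moved in opposite directions and belong to pathways with known recognition sequences. Each window runs from 250 bases before to 50 bases after the gene start in the RefSeq annotation (assembly ASM294v3). The first 3 are uptake genes, with matches in capitals to AGATAA or TGATAA on either strand, the core of the GATA element bound by Fep1.
str3, chrI:90240-90539, minus strand: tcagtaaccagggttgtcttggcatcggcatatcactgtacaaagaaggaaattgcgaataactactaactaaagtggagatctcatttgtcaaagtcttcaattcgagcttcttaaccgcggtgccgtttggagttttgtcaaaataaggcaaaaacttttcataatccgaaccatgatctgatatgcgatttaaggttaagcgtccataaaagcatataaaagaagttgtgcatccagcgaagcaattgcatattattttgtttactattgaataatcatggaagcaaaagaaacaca
frp1, chrII:162343-162642, minus strand: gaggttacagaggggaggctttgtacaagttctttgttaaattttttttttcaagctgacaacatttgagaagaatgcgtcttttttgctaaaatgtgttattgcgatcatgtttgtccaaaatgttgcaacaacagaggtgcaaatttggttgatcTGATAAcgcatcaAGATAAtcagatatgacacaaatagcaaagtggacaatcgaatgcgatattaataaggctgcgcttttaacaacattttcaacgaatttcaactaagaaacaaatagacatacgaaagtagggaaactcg
fio1, chrI:4234822-4235121, plus strand: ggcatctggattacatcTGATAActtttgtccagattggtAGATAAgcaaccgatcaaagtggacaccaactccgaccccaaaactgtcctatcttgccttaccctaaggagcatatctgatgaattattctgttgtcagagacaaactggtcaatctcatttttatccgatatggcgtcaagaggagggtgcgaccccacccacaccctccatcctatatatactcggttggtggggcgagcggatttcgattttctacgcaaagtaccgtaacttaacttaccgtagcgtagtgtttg
The windows of frp1 and fio1 each hold 2 matches and that of str3 holds none. Of the 10 uptake genes 6 (60.0%) had at least 1 match and 5 (50%) had 2 or more, against 44.1% and 12.2% of 5112 protein-coding genes. The same element had at least 1 match in 7 of 13 windows of the iron regulator and iron-using list (53.8%), which holds mostly genes that were higher. Genes fio1 and fip1 are neighbours on opposite strands, and their windows overlap and hold the same 2 matches. The gene str2, which did not differ, also had 2 matches. The last window is that of cyc1, an iron-using gene that was higher in the deletion, with matches in capitals to CCAAT on either strand.
cyc1, chrIII:1714372-1714671, plus strand: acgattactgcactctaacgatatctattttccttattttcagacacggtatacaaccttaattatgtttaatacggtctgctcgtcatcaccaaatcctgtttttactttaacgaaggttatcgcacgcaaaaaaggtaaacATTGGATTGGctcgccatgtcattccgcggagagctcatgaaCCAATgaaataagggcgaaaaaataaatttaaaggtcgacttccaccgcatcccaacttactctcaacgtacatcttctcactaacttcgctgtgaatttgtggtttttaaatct
The cyc1 window holds 3 matches, of which the 2 on the opposite strand lie end to end. A CCAAT match was present in 12 of 13 windows of the iron regulator and iron-using list (92.3%) and in 22 of 31 windows of the respiratory list (71.0%), against 4 of 10 windows of uptake genes and 42.2% of all 5112 windows. These are matches of letters in a window and not measured binding. The iron-using and respiratory lists share at least the gene cyc1, and the iron-using list also holds sdh4, a subunit of succinate dehydrogenase.

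Iron-using and iron-regulating genes differed mostly in the other direction. Of 13 listed, 8 were higher in the deletion, 6 of them by at least 2-fold, and 3 were lower, against 20.7%, 2.64% and 21.7% of all genes. In the memory comparison 9 were higher, 1 of them by at least 2-fold, and 3 were lower, against 34.6%, 4.78% and 33.7% of all genes. Cytochrome c (cyc1) had 725 to 837 CPM (median 767) in the deletion and 126, 68.3 and 60.0 CPM at 120 h. The log2 difference was 3.19 (SE 0.22, adjusted p = 1.04e-06), and the 0 h libraries, at 851, 823 and 886 CPM, overlapped the deletion range. The aconitase gene aco1 differed by 2.39 and the iron-sulfur cluster assembly gene isa1 by 2.35, and the vacuolar iron transporter gene pcl1 was 4.22-fold higher. The repressor gene fep1 itself was higher in the deletion, with 64.6 to 88.8 CPM (median 68.7) against 31.5, 18.3 and 16.5 CPM (log2 difference 1.70, SE 0.18, adjusted p = 3.36e-05). The opposing regulator php4 was lower, with 105 to 120 CPM (median 112) against 227, 184 and 195 CPM (log2 difference -0.84, SE 0.11, adjusted p = 9.79e-05). Glutaredoxin grx4, which senses iron with both factors, was lower by -0.49.

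Respiratory chain genes were higher as a group. Of 31 genes of the respiratory chain and ATP synthase, 26 were higher in the deletion, 9 by at least 2-fold, and none was lower, against 20.7% higher and 21.7% lower of all genes. This list and the iron-using list share at least cyc1, and the iron-using list also holds sdh4, so their counts are not separate results. The 4 subunits of succinate dehydrogenase, complex II, lay among the largest: sdh2, the iron-sulfur subunit, differed by 3.66, sdh4 by 3.05, sdh3 by 2.35 and sdh1 by 2.26. The sdh2 gene had 290 to 331 CPM (median 305) in the deletion, 42.2, 15.6 and 14.7 CPM at 120 h and 489, 351 and 404 CPM at 0 h. Complex III followed, with the iron-sulfur protein gene rip1 at 1.90 and the small subunit gene qcr7 at 1.08. The gene ppa2 covers the whole of rip1, so reads of the pair cannot be told apart. Complex IV and the ATP synthase differed less: of their genes, cox5, a subunit of cytochrome c oxidase, was the only one past 2-fold, at 1.12. With the memory 120 h libraries in their place, 11 of the 31 were higher and 8 were lower, with a median of 0.01. Of all genes in that comparison 34.6% were higher and 33.7% lower. There sdh2 differed by 0.64, sdh4 by 0.52 and cyc1 by 0.45, while sdh1 was lower in the deletion by -0.17 (adjusted p = 9.21e-03). Across genes, the memory difference was correlated with GC content (Spearman's rho -0.331 over 6398 genes, against 0.047 over 6470 genes in the main comparison), and genes are not independent replicates. Its part in the respiratory values was not tested.

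**Figure D3:**
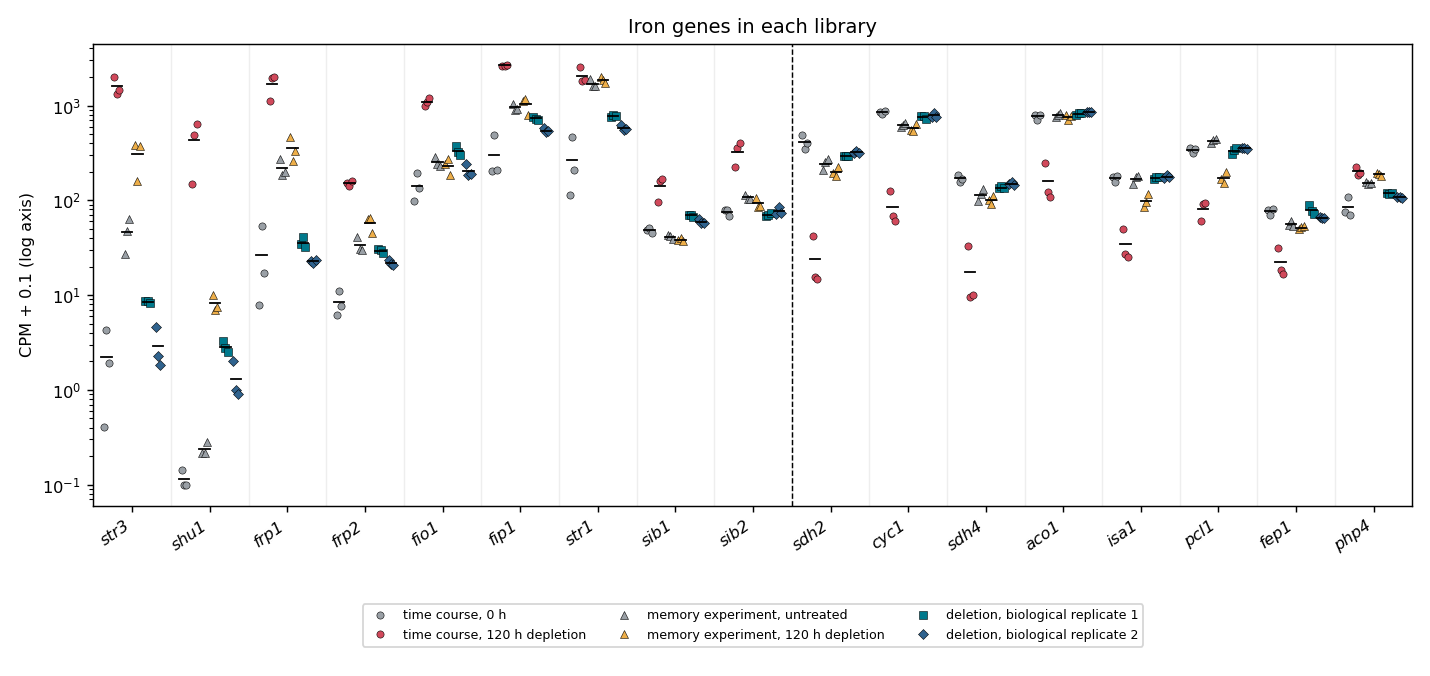
CPM + 0.1 of each library (vertical log axis) for 9 iron and haem uptake genes (left of the dashed line) and for iron-using or iron-regulating genes (right), with 3 libraries a group as points and the group mean as a bar. The time-course 120 h libraries are the highest group for all 9 uptake genes and the lowest for the 7 genes from sdh2 to fep1.

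Of 9 copper and zinc genes 2 were higher and 3 were lower in the deletion, with a median of -0.07, against 20.7% and 21.7% of all genes. The copper transporter gene ctr4 had 23.7 to 28 CPM (median 24.6) in the deletion and 109, 84.4 and 82.0 CPM at 120 h (log2 difference -1.87, SE 0.23, adjusted p = 1.43e-04), and its partner ctr5 differed by -0.67, which did not pass with summed libraries. The catalase gene ctt1, a haem enzyme that breaks down peroxide, had 97.9, 116 and 121 CPM in deletion biological replicate 1 and 172, 231 and 213 CPM in biological replicate 2. The 120 h libraries had 11.8, 6.05 and 5.40 CPM and the 0 h libraries 312, 200 and 228 CPM, so ctt1 was low at 120 h alone among the 3 groups (log2 difference 4.29, SE 0.28, adjusted p = 1.70e-06). The memory 120 h libraries had 360, 270 and 417 CPM of ctt1, above the deletion, and that log2 difference was -1.19 (adjusted p = 5.14e-05).

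Genes near chromosome ends more often differed by at least 2-fold than genes elsewhere, above all in the lower direction. Chromosomes I and II had 161 genes whose distance to a chromosome end was under 100 kb. Of these 115 were tested, 24 were higher and 51 were lower in the deletion. At least 2-fold differences were found for 16 that were higher (13.9%) and 35 that were lower (30.4%), against 2.64% and 1.69% of all genes. Elsewhere in the genome these were 2.44% and 1.18% of 6466 genes. Subtelomeric genes made up 9.2% of all genes at least 2-fold higher and 31.5% of those at least 2-fold lower. In the memory comparison 30 of 104 subtelomeric genes were higher and 38 were lower, against 34.6% and 33.7% of all genes. At least 2-fold differences were found there for 21 that were higher and 19 that were lower, against 4.78% and 1.94% of all genes. Genes that were lower were most frequent at the right end of chromosome II (12 of 29 at least 2-fold) and the left end of chromosome I (13 of 36). Many subtelomeric genes have near-identical copies at other chromosome ends, and how the authors' counting treated reads shared by copies is not given in the sources used here, so single values in these regions are uncertain.

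The largest subtelomeric rises went with the count table. SPBC1348.04, annotated as a methyltransferase (chromosome II, 12176 to 12750), had 14.3 to 19.9 CPM (median 16.3) in the deletion and 0, 0.0870 and 0.141 CPM at 120 h. Its 120 h libraries held 5 counts in all, and the pooled ratio was 221 (95% exact counting interval 94.5 to 680, which covers counting error only). The transporter gene SPBC1348.05 beside it had 14.5 to 16.3 CPM (median 15.3) in the deletion and 5 counts in the 3 libraries at 120 h (pooled ratio 202, interval 86.3 to 622). SPAC750.03c, also annotated as a methyltransferase and at the right end of chromosome I, had 53.2 to 65.9 CPM (median 56.4) against 0.371, 0.348 and 0.704 CPM, a log2 difference of 6.93 (SE 0.17, adjusted p = 4.99e-12). SPAC977.15, annotated in the dienelactone hydrolase family, had 155 to 216 CPM (median 188) in the deletion and 8.27 ± 2.01 CPM (SD, n = 3) at 120 h (log2 difference 4.51, SE 0.16, adjusted p = 3.31e-09). All 4 were also low at 0 h, where SPAC750.03c had 1.08, 0.688 and 0.615 CPM and SPAC977.15 had 1.08, 1.70 and 2.56 CPM. All 4 were present in both groups of the memory experiment. The untreated memory libraries, for example, had 39.7, 45.2 and 48.2 CPM of SPAC750.03c, and the treated ones 53.6, 50.5 and 89.9 CPM. Against the memory 120 h libraries the log2 differences were -0.20, -1.01, -0.14 and -1.83 in the order given. Of the 174 genes at least 2-fold higher in the deletion, 169 were in the memory table, and 14 of these had both time-course groups at least 2-fold below the deletion and both memory groups. Of the 100 such genes on the lower side, 7 had both time-course groups at least 2-fold above the deletion and both memory groups. These genes thus stood apart in the time-course libraries before TN was added, and not in the memory libraries after 120 h of TN. The 2-fold rule that chose the 174 and the lower genes already meets part of this pattern. The share of all genes with the pattern was not computed, so these counts are a description only. Of the 14 on the higher side, 5 were subtelomeric, and ght1, gld1 and gst2, described below, were also among the 14.

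The largest falls near chromosome ends were in genes that were also low at 0 h. The arylsulfatase gene SPBPB10D8.02c (chromosome II, 83229 to 85631) had 0.589 to 1.49 CPM (median 1.12) in the deletion, 71.1, 191 and 196 CPM at 120 h and 0.732, 0.769 and 0.922 CPM at 0 h. The log2 difference was -7.25 (SE 0.35, adjusted p = 1.86e-07), and the antisense transcript SPNCRNA.1307, which lies wholly within it, differed by -7.32. Reads of the gene and of its antisense partner cannot be told apart where counting ignored strand. The cysteine transporter gene SPBPB10D8.01 next to it had 6.07 to 7.88 CPM (median 7.25) against 54.9, 123 and 132 CPM (log2 difference -3.88, SE 0.30). SPBPB10D8.03, in the same cluster, had 1 count in the 6 deletion libraries and 501 counts in the 120 h libraries (pooled ratio 1070, 95% exact counting interval 192 to 42400). At the right end of chromosome II, SPBPB2B2.08, of unknown function, had 1.66 to 2.98 CPM (median 1.99) against 14.3, 56.4 and 61.2 CPM (log2 difference -4.37, SE 0.41, adjusted p = 2.31e-05). These falls were smaller with the memory 120 h libraries, at -2.79 for SPBPB10D8.02c, -0.85 for SPBPB10D8.01 and -0.06 (adjusted p = 0.847) for SPBPB2B2.08, which did not pass there. The non-coding genes SPNCRNA.604 and SPNCRNA.139, which overlap each other beside str3, each had 2.29 to 4.73 CPM (median 3.58) in the deletion. SPNCRNA.604 had 67.6 to 86.1 CPM at 120 h and 1.72 to 3.02 CPM at 0 h, and the differences were -4.43 and -4.42. For shu1, SPBPB10D8.01, SPBPB10D8.02c, SPBPB10D8.03 and SPBPB2B2.08, 120 h replicate 1 was the lowest of the 3, and for str3 and both non-coding genes it was the highest. Without it, 33 of 121 subtelomeric genes tested were higher and 54 were lower. The telomeric helicase gene tlh2 went the other way, at 48.6 to 68.7 CPM (median 61.6) against 16.0, 21.2 and 19.9 CPM (log2 difference 1.65, SE 0.12), and its level at 0 h was 15.2 to 16.8 CPM. The near-identical copy tlh1 did not pass (-0.20). In the comparison with the memory 120 h libraries tlh2 differed by 1.70 and tlh1 by 3.29.

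**Figure D4:**
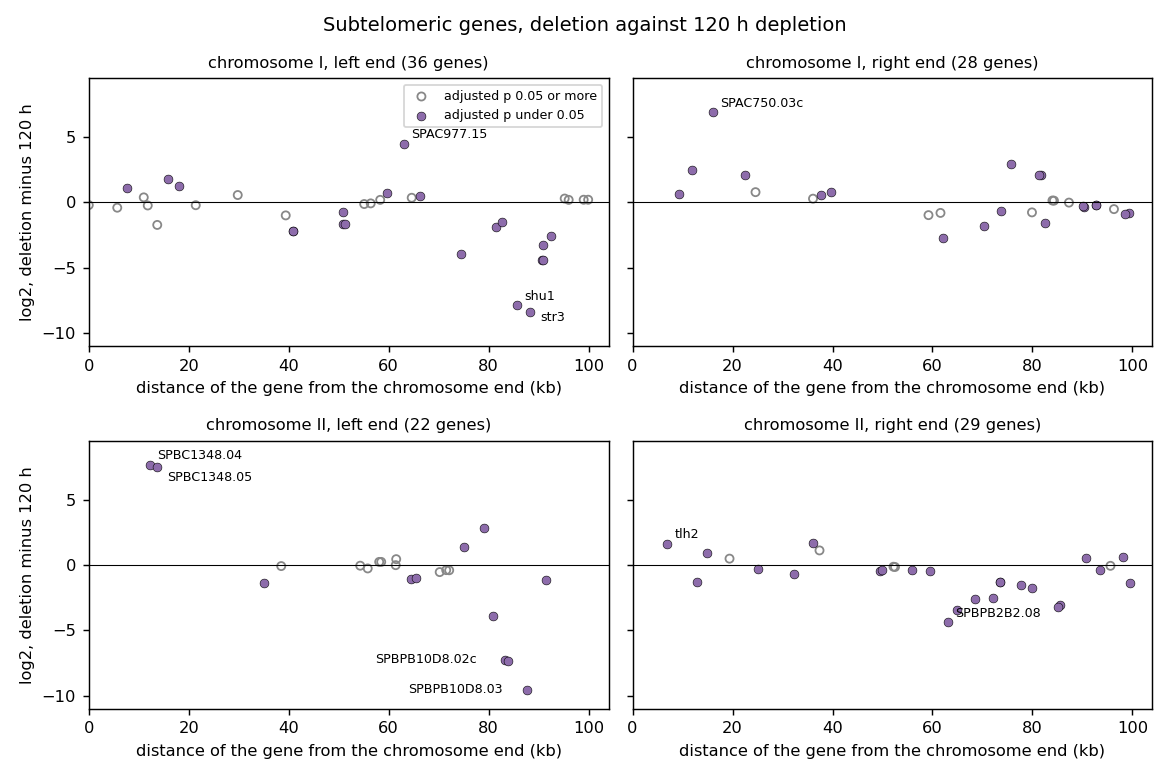
Log2 difference, deletion minus 120 h depletion (vertical axis), of the 115 subtelomeric genes tested, against the distance of the gene from its chromosome end in kb (horizontal axis), 1 panel an end. Filled points passed an adjusted p under 0.05. The 3 largest rises, SPBC1348.04, SPBC1348.05 and SPAC750.03c, lie within 20 kb of an end, and the largest falls lie 60 to 100 kb from an end. Points of SPBC1348.04, SPBC1348.05 and SPBPB10D8.03 are fitted values with at most 5 counts in 1 of the groups.

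Of 12 genes of the Ste11 pathway and meiotic entry 9 were higher in the deletion, 4 by at least 2-fold, and 1 was lower, against 20.7% higher, 2.64% at least 2-fold higher and 21.7% lower of all genes. With summed libraries 6 of the 12 were higher and 0 were lower. The gene for Ste11, the transcription factor that starts sexual differentiation, had 248 to 286 CPM (median 279) in the deletion, 65.7, 104 and 123 CPM at 120 h and 93.9, 111 and 105 CPM at 0 h. The log2 difference was 1.48 (SE 0.16, adjusted p = 5.80e-05). The pheromone MAP kinase gene spk1 differed by 1.22, the signalling regulator gene rgs1 by 1.20 and ste7 by 1.03, of which ste7 did not pass with summed libraries. The P-cell regulator gene map1 had 50.5 to 57.9 CPM (median 52.5) against 18.0, 26.4 and 24.3 CPM (log2 difference 1.23, SE 0.13). In the comparison with the memory 120 h libraries ste11 differed by 2.28, spk1 by 1.28, rgs1 by 2.39 and map1 by 2.00.

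M-cell genes, which encode the M-factor pheromone and its partners, differed between the 2 deletion biological replicates. The pheromone gene mfm1 had 9.95, 7.92 and 10.7 CPM in biological replicate 1 and 271, 194 and 326 CPM in biological replicate 2. At 120 h the values were 6.76, 8.49 and 8.26 CPM, so biological replicate 1 lay around the 120 h level and biological replicate 2 far above it. Untreated degron cells had 22.4, 43.6 and 31.9 CPM at 0 h, and 322, 299 and 323 CPM in the memory experiment. The memory 120 h libraries had 3.27, 7.8 and 3.51 CPM. The difference between the biological replicates was 4.79 on the log2 scale (SE 0.28, adjusted p = 1.65e-05). The pheromone gene mfm2 had 12.8, 15.7 and 17.9 CPM in biological replicate 1 and 474, 446 and 455 CPM in biological replicate 2, with 72.4, 122 and 133 CPM at 120 h in between. The mean of both biological replicates therefore did not pass (log2 difference -0.38, adjusted p = 0.127), while the biological replicates differed by 4.89 (SE 0.25, adjusted p = 5.10e-06). The M-factor transporter gene mam1 and the P-factor receptor gene mam2 differed between the biological replicates by 2.04 and 1.30. The P-cell genes map2, which encodes P-factor, and map3, which encodes the M-factor receptor, were lower in biological replicate 2 by -0.37 and -0.69. For map1 no difference between the biological replicates was detected (0.10, adjusted p = 0.961). The mating type of the strains is not stated in the labels, and both sets of genes were detected in every library. The meiotic genes that heterochromatin islands or the RNA-binding protein Mmi1 keep silent were higher for 5 of 10 and lower for 1 (mbx2, -0.52), against 20.7% and 21.7% of all genes. Of these, mug8 had 61.5 to 79.9 CPM (median 71.0) in the deletion, 25.5, 25.2 and 29.5 CPM at 120 h and 15.4, 16.9 and 13.1 CPM at 0 h (log2 difference 1.40, SE 0.09, adjusted p = 8.36e-08), and the cohesin gene rec8 differed by 0.74.

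**Figure D5:**
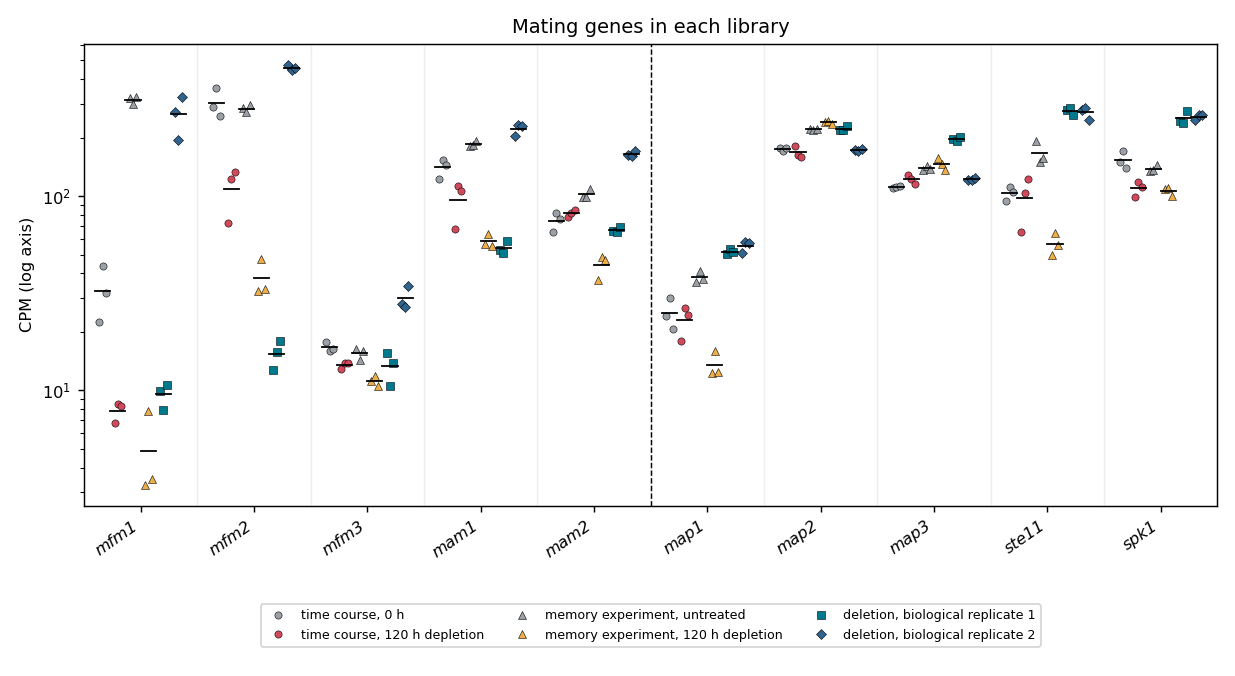
CPM of each library (vertical log axis) for M-cell genes (left of the dashed line) and for P-cell and Ste11 pathway genes (right), with 3 libraries a group as points and the group mean as a bar. The deletion replicates separate for mfm1 and mfm2, with biological replicate 1 at 7.92 to 17.9 CPM and biological replicate 2 at 194 to 474 CPM, and lie together for ste11 and spk1.

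Of 14 heat shock chaperone genes tested (of 15 listed) 11 were lower in the deletion and 1 was higher, the heat shock factor gene hsf1 by 0.12, which did not pass without 120 h replicate 1 (0.08). Of all genes 21.7% were lower and 20.7% higher. With summed libraries 6 of the 14 were lower, and against the memory 120 h libraries 6 were lower and 4 were higher. Of all genes in the memory comparison 33.7% were lower and 34.6% higher. The hsp90 gene had 2589 to 3162 CPM (median 2726) in the deletion and 4749, 6242 and 6349 CPM at 120 h (log2 difference -1.04, SE 0.10, adjusted p = 4.15e-06). At 0 h it was at 4651, 5320 and 6206 CPM, a level that overlaps the 120 h libraries and not the deletion. The chaperone regulator gene sti1 differed by -0.96. Against the memory 120 h libraries both genes were higher in the deletion, hsp90 by 0.42 and sti1 by 1.14, so the direction went with the 120 h set. Of 17 core stress genes tested, 4 (23.5%) were higher and 6 (35.3%) were lower, with single members far in both directions, and 10 were lower without 120 h replicate 1. The glutathione S-transferase gene gst2 differed by 2.16, the phosphatase gene pyp2 by 1.26, the small heat shock protein gene hsp16 by -1.53 and the sulfiredoxin gene srx1 by -1.05. The gst2 gene was among the 14 genes with both time-course groups, 0 h included, at least 2-fold below the deletion and both memory groups.

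Nutrient genes differed mostly one by one. The hexose transporter gene ght1 had 32.9 to 39.7 CPM (median 36.8) in the deletion and 7.60, 6.05 and 8.54 CPM at 120 h (log2 difference 2.32, SE 0.14, adjusted p = 4.71e-08), while ght3, a gluconate transporter, differed by -1.48. The ght1 gene was among the 14 genes with both time-course groups, 0 h included, at least 2-fold below the deletion and both memory groups. Of 8 hexose transporter genes 5 were higher and 1 was lower, against 20.7% and 21.7% of all genes, shares that also serve for the other lists of nutrient and cell surface genes. In the memory comparison 3 of the 8 were higher and 2 were lower, against 34.6% and 33.7% of all genes there. The glycerol dehydrogenase gene gld1 differed by 1.86 and the protein kinase A regulatory subunit gene cgs1 by 1.02, and 6 of 9 glucose-repressed genes and regulators were higher. The gld1 gene was also among those 14, and against the memory 120 h libraries it differed by -0.54 (adjusted p = 1.30e-02). The ammonium transporter gene amt1 had 208 to 260 CPM (median 237) against 85.3, 62.4 and 67.3 CPM (log2 difference 1.72, SE 0.14), and 7 of 13 nitrogen starvation genes were higher (4 with summed libraries). Among phosphate genes, the acid phosphatase gene pho1 had 1066 to 1180 CPM (median 1151) in the deletion and 807, 768 and 736 CPM at 120 h (0.56, adjusted p = 8.58e-04), and the transporter gene pho84 differed by -0.36. Against the memory 120 h libraries these were 3.12 and 1.86. Of 7 flocculin-like cell surface genes tested 5 were lower (3 with summed libraries). The glycoprotein gene pfl7 had 0.956 to 2.42 CPM (median 2.15) against 12.8, 17.5 and 19.3 CPM (log2 difference -3.17, SE 0.18, adjusted p = 3.95e-08). The flocculin gene gsf2 rested on 1 library: its 120 h values were 335, 25.8 and 21.9 CPM against 25.2 to 30.9 CPM (median 27.9) in the deletion. Its log2 difference of -2.18 (SE 0.75, adjusted p = 0.0444) became 0.24 without 120 h replicate 1.

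Translation and chromatin genes showed small differences. Of 127 cytosolic ribosomal protein genes tested 46 were lower in the deletion and 2 were higher, with a median of -0.16, against 21.7% lower and 20.7% higher of all genes. With summed libraries 14 were lower. In the memory comparison 86 of 101 were lower and 3 were higher, with a median of -0.44. The shares of all genes there were 33.7% lower and 34.6% higher. In the main comparison without 120 h replicate 1, 30 were lower and 10 were higher. The ribosomal protein gene rpl3802 differed most, by -1.01 (SE 0.12, adjusted p = 6.92e-05). Of 11 histone genes 5 (45.5%) were higher, against 20.7% of all genes, the H4 gene hhf3 by 0.43, and 8, 1 and 2 were higher without 120 h replicates 1, 2 and 3 in turn, and 1 with summed libraries. Of 10 Tf2 retrotransposon genes tested 2 were higher and 1 was lower, no more than the shares of all genes. These are near-identical copies, and their counts are uncertain. The copy Tf2-13 had 0.285, 0.330 and 0.426 CPM in deletion biological replicate 1 and 3.92, 2.83 and 2.60 CPM in biological replicate 2, against 3.33, 2.22 and 3.38 CPM at 120 h. Its log2 difference of -1.52 (SE 0.22, adjusted p = 1.31e-04) was made up of -3.10 for biological replicate 1 and 0.06 for biological replicate 2.

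Of 1447 genes tested that have non-coding RNA identifiers, 293 were higher and 301 were lower, which is 20.2% and 20.8% against 20.7% and 21.7% of all genes. Of these 53 and 44 passed 2-fold. The largest rises past the level of 5 CPM were SPNCRNA.778 (2.91), SPNCRNA.780 (2.85) and SPNCRNA.1306 (2.84). SPNCRNA.1306 overlaps no other gene and had 19.1 to 27.8 CPM (median 23.1) in the deletion and 6.11, 2.18 and 1.41 CPM at 120 h. The other 2 are covered by other annotated transcripts over 95.3% and 100% of their length, so their reads cannot be assigned to them alone.

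For most genes with large differences, untreated degron cells were nearer the deletion than the 120 h cells on the log2 scale. Of the 174 genes at least 2-fold higher in the deletion, the 0 h mean of log2(CPM + 0.5) was nearer the deletion mean for 122 (70.1%), and of the 111 that were lower for 69 (62.2%). Over all 6581 genes this share was 46.3%. The 0 h and 120 h libraries share a strain and a table, and the 0 h and deletion libraries share the absence of TN, so this is a description with no test. Against the memory 120 h libraries 4439 of 6503 genes (68.3%) passed, 2249 higher and 2190 lower, with 311 (4.78%) and 126 (1.94%) past 2-fold. The deletion libraries are shared by both comparisons.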

How the data were processed

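The values are counts of reads per gene in 3 tables that the authors deposited, and per the submitters' processing notes reads were trimmed with Trimmomatic and aligned with STAR to ASM294v2. The counting tool, its strand setting and its treatment of reads shared by gene copies are not given in the sources used here. A total of 6 count columns matched no sample and were not used. Tables were joined by gene identifier, and the last digit of a column name (0, 1 or 2) was read as replicate 1, 2 or 3. Of 6745 identifiers 6626 matched the RefSeq annotation (ASM294v3), all on the same chromosome, and 99.5% shared a start or end. Positions are those of the deposited tables, and promoter windows are those of ASM294v3.

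Counts were filtered with filterByExpr, scaled by TMM and fitted with edgeR 4.0.16 (R 4.3.3, limma 3.58.1) by glmQLFit and glmQLFTest over 12 libraries (deletion, 120 h and 0 h), with Benjamini-Hochberg adjustment over all genes tested and a threshold of 0.05. The contrast was the mean of both biological replicates minus 120 h. The memory comparison was a fit of its own. On simulated data 196 of 200 changed genes were recovered with 9 false calls. The simulation changed only genes above a minimum level, by preset folds, and drew every library independently. It therefore does not show how calls hold where libraries share a biological replicate or a table, or for differences smaller than those preset. Ratios against groups with 10 counts or fewer are pooled count ratios with exact 95% binomial intervals.

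Genes were named by a rule: the genes of the construct and the thiamine list, the 8 protein-coding and 3 other genes with the largest difference in each direction (called in both biological replicates, groups not overlapping, mean of at least 5 CPM), up to 2 called members of each list in each direction, and any member of the Clr4 complex, JmjC, mating and phosphate lists. Further members of the iron, respiratory, Ste11, stress and subtelomeric lists, and the gene SPBPB10D8.03, were chosen after their values were seen. The comparison, the lists and the rule were chosen with earlier results of these data known. Alternatives were RLE scaling, plain library totals, DESeq2 1.42.0, no filter, other sets of libraries, summed biological replicates, a replicate block, a GC offset and leaving out each library.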

Additional observations from a re-analysis of the deposited data

Results flagged for a closer look

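The 2 biological replicates of the deletion differed from each other in 11 genes described here, and that difference was tested in the same edgeR quasi-likelihood fit with Benjamini-Hochberg adjustment over all genes. Each value is the log2 level of biological replicate 2 minus that of biological replicate 1, with 3 libraries each. Among M-cell genes, biological replicate 2 was higher for mfm1 by 4.79 (SE 0.28), for mfm2 by 4.89 (SE 0.25), for mfm3 by 1.16 (SE 0.13), for mam1 by 2.04 (SE 0.17), for mam2 by 1.30 (SE 0.07), for mam3 by 0.62 (SE 0.09) and for mam4 by 1.18 (SE 0.10). Adjusted p ranged from 6.78e-07 for mam2 to 2.80e-03 for mam3. The other M-cell gene listed, sxa2, did not pass. Among P-cell genes the sign was the other way for those that passed. The values were -0.69 for map3 (SE 0.04, adjusted p = 1.94e-06), -0.37 for map2 (SE 0.05, adjusted p = 1.93e-03) and -0.56 for map4 (SE 0.11, adjusted p = 3.85e-02). The P-cell gene map1 did not pass, at 0.10 (SE 0.13, adjusted p = 0.961). The retrotransposon copy Tf2-13 was higher in biological replicate 2 by 3.16 (SE 0.30, adjusted p = 5.76e-05). For mfm2, biological replicate 1 was below the 120 h libraries (-2.82) and biological replicate 2 above them (2.07), and mam1 had the same order (-0.82 and 1.22).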

How the results depend on the processing

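The count of 2791 genes stayed between 2622 and 2912 under RLE scaling, library totals, DESeq2, no filter, the 9 libraries alone and a GC offset. Replicate numbers did not pair the libraries (correlations of same-numbered deviations from -0.138 to 0.045), and with a replicate block 2684 genes passed (2274 for biological replicate 1, 2234 for biological replicate 2, 4366 against the memory libraries). With each biological replicate's libraries summed, 1482 passed. Among the 1962 genes that overlap no other gene 844 passed, with 79 at least 2-fold higher and 59 lower. The memory 120 h libraries gave 4439, with 311 at least 2-fold higher. Leaving out 1 library gave 2183 (without 120 h replicate 2) to 3245 (without replicate 1), with 161 to 209 at least 2-fold higher and 106 to 116 lower. For biological replicate 1 alone, in fits chosen after the data were seen, this gave 1867 to 2949, for biological replicate 2 it gave 1740 to 2906, and against the memory libraries 4197 to 4416.

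Of 104 genes named, gsf2 and hsf1 were the only ones that lost their call when 1 library was left out. For gsf2 the range was -2.66 to 0.24, with 0.24 without 120 h replicate 1, and it also missed the threshold without any of the 6 deletion libraries. Summing the libraries of each biological replicate lost the calls of 15 (str1, lid2, mbx2, mfm1, mfm3, mam2, mam4, map2, map3, ste7, ctr5, ptr2, gsf2, Tf2-13 and hsf1) and moved 33 of 80 list counts by over 1.5 times. Against the memory 120 h libraries 26 of 102 changed sign, and the cause was not tested. These were tnr3 (-0.12), SPBC1348.04 (-0.20), SPBC1348.05 (-1.01), SPAC750.03c (-0.14), SPAC977.15 (-1.83), ctt1 (-1.19), fio1 (0.18), sib1 (0.76), chp2 (0.65), swi6 (0.21), rik1 (0.23), rxt2 (0.25), clr2 (-0.40), lid2 (0.05), mfm2 (1.17), map2 (-0.28), gld1 (-0.54), pyp2 (-1.46), hsp16 (0.19), hsp90 (0.42), sti1 (1.14), pho84 (1.86), sdh1 (-0.17), hsf1 (-0.31), tlh1 (3.29) and hhf3 (-0.15). Depth limits genes with few counts, such as the 120 h level of SPBC1348.04, where 5 counts in all set the ratio.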
